A study of Homo sapiens with 6 samples.

Results

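The BCL2 family survival and death genes described here were 10 genes chosen by symbol: the survival genes BCL2, BCL2L1 and MCL1, the pore-forming effectors BAX and BAK1, the BH3-only genes BCL2L11, BBC3, BID and BAD, and the mitophagy receptor gene BNIP3L. All 10 were present among the 26485 gene symbols of the count tables. All 10 also passed the filter on low counts, which kept 12282 genes. They were measured by RNA-seq of total RNA from K562, an established human chronic myeloid leukaemia line with erythroid features that was grown in serum-containing medium. The 6 libraries fell into 3 groups of 2, each with a replicate 1 and a replicate 2. The control group carried the guide RNA sgNeg2 and was labelled wild type. The other groups carried ZNF410_sgRNA#1 (called sgRNA1 here) or ZNF410_sgRNA#2 (sgRNA2) and were labelled ZNF410 KO, and the study used these knockout lines to ask what the zinc-finger transcription factor ZNF410 does in gene expression. The labels do not say whether a line was a single clone or a pool, or what a replicate number stands for, so the p-values below measure the spread between these libraries, which may be technical.

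BCL2 family proteins meet at the outer membrane of the mitochondrion. BAX and BAK1 form pores there that release cytochrome c, the survival proteins hold the effectors and the BH3-only proteins in check, and the BH3-only proteins bind the survival proteins or the effectors in response to stress or loss of growth signals. In erythroid cells BCL2L1 (the BCL-xL gene) is known for survival late in maturation, and BNIP3L (also called NIX) for the removal of mitochondria from the maturing red cell.

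Gene counts per library summed to between 8788816 and 9537470. ZNF410 had 33.98 and 38.17 CPM (counts scaled to library size) in the control libraries and 16.98 to 24.54 in the 4 knockout libraries, and CHD4, a chromatin remodeller gene known as a ZNF410 target, had 589.5 and 666.3 against 283.8 to 325.8, so both were lower in every library labelled knockout. All 10 erythroid and K562 markers had a mean of at least 1 FPKM (fragment counts scaled to transcript length and library size). Their summed level was 13900 to 19000 FPKM in the replicate 1 libraries and 30500 to 43800 in the replicate 2 libraries, most of it from the fetal globin genes HBG1 (4691 to 6494 and 9421 to 12730) and HBG2 (7695 to 10748 and 16970 to 23415), a difference whose part in the results below was not tested. GATA1, an erythroid transcription factor gene in the same list, was lower in replicate 2 in every group, at 205.29, 222.81 and 217.83 FPKM in replicate 1 (control, sgRNA1, sgRNA2) and 184.53, 197.51 and 205.2 in replicate 2. Of the 5 megakaryocyte markers, 2 were at a mean of 1 FPKM or more and moved with the replicate number in opposite directions: GP1BB had 54.69 to 71.48 FPKM in replicate 1 and 92.86 to 105.9 in replicate 2, and ITGA2B 7.18 to 10.16 and 0.84 to 1.25. PF4 of the megakaryocyte list, MPO and ELANE of the granulocyte and monocyte list, and DCN and LUM of the fibroblast list were listed at 0 in all 6 libraries, and the 4 B cell markers summed to at most 1.1 FPKM. CD3D was the 1 of 4 T cell markers at 1 FPKM or more (23.01 to 38.46 in replicate 1, 4.63 to 6.77 in replicate 2, with CD3E at no more than 0.22). LYZ was the 1 of 4 granulocyte and monocyte markers at that level (8.39 to 12.19 in replicate 1, 2.02 to 3.38 in replicate 2). The part of these genes in the results was not tested. In bulk RNA, fewer cells of a kind and less RNA per cell cannot be told apart.

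The members lie on 10 different stretches of the genome, and the RefSeq coordinates of 9 of them on GRCh38.p14 are BCL2 chr18:63123346-63320090, BCL2L1 chr20:31664452-31723963, MCL1 chr1:150574558-150579610, BAX chr19:48954875-48961798, BAK1 chr6:33572552-33580276, BCL2L11 chr2:111120914-111168445, BBC3 chr19:47220824-47232860, BID chr22:17734138-17774665 and BAD chr11:64269828-64284704. BAX was the 1 member that no other annotated gene overlapped (GENCODE v29). Whether counting used strand is not given in the sources used here, so reads from a member and from a gene opposite it cannot be told apart. ABALON, opposite BCL2L1, had 628 to 1134 counts, MIR4435-2HG, opposite BCL2L11, had 232 to 306, and GPR137, opposite BAD, had 152 to 210. GGNBP1 opposite BAK1 had at most 3 counts, and PNMA2 opposite BNIP3L had 0.

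Promoter windows from RefSeq (GRCh38.p14), from 250 bases before to 50 bases after a transcript start, matched 8 of the 10 members with 14 entries. MCL1 and BNIP3L had none here. The stretches before the start of the gene are shown for BCL2L1 and BBC3, the members with the largest changes between replicate numbers, for BCL2L11, the 1 member with a FOXO motif in its window, and for BAX, an effector whose level moved little. The BBC3 stretch is shorter because an annotated start lies inside its window. Capitals mark the GC box (GGGCGG, bound by SP-type factors) and the forkhead (FOXO) motif GTAAACA, each searched on both strands.
BCL2L1, chr20:31723964-31724213, minus strand: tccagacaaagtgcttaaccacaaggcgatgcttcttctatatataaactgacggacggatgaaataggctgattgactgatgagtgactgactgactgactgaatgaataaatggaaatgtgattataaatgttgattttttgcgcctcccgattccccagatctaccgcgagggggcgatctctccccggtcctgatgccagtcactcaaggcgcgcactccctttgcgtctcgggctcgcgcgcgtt
BBC3, chr19:47232861-47232917, minus strand: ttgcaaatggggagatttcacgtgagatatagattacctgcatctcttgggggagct
BCL2L11, chr2:111120664-111120913, plus strand: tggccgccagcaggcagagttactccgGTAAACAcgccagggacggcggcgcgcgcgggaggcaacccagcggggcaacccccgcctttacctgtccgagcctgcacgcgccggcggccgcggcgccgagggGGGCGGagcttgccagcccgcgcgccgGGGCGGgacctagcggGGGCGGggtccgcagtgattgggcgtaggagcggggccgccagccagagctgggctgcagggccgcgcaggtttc
BAX, chr19:48954625-48954874, plus strand: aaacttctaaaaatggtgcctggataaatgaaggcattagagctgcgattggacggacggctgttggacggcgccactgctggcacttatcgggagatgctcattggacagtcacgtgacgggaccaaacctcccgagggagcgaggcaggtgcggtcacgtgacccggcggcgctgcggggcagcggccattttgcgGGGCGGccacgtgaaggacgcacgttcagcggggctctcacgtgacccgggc
The BCL2L11 stretch held 3 GC boxes and 1 FOXO motif, the BAX stretch 1 GC box, and the BCL2L1 and BBC3 stretches neither. Whole windows also reach past the start: that of BAX held 2 GC boxes, and the other BCL2L1 window (chr20:31722819-31723118, not shown) held 1. Over all 34796 promoter windows searched, each 300 bases long, 44.9% held a GC box and 3.42% the FOXO motif. No window of a member held the letters CCCATAATA from the ZNF410 recognition sequence (0.0862% of all windows), the GATA motif AGATAA (10.4%) or the STAT motif TTCNNNGAA (7.67%). The window of CHD4, the known ZNF410 target, held 0 matches to CCCATAATA as well, so its absence from the members' windows says nothing about binding. CpG dinucleotides numbered 39 in the BCL2L11 window and 38 in the BAX window but 5 in the BBC3 window, against a median of 14 over all windows. These matches describe letters in the windows and no binding was measured.

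Levels per length, in FPKM, differed widely between the members. BAX was highest on average (84.7 ± 6.15, SD over 6 libraries), followed by BCL2L1 (75.0 ± 22.9) and MCL1 (63.3 ± 5.56). The range of BCL2L1 (53.4 to 98.7) overlapped both others, while that of BAX (76.5 to 94.3) lay above that of MCL1 (58.2 to 74.1). BID came next at 26.0 ± 1.73, below MCL1 and above BAK1 (17.0 ± 1.43) in all 6 libraries and with ranges that did not overlap either of them. BNIP3L (15.4 ± 3.71), BAD (14.3 ± 3.82), BCL2L11 (9.20 ± 0.683) and BBC3 (8.84 ± 4.49) followed, each with a range overlapping that of the gene before it. Within a library BAD was above BCL2L11 in all 6. BCL2 itself was lowest at 0.985 ± 0.365, with a range of 0.37 to 1.42 that did not reach the lowest BBC3 value. The BCL2 level rested on 19 to 34 counts per library and on an assigned transcript length that varied from 1663 to 3197 bases, so it was the least precise of the 10.

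**Figure D1:**
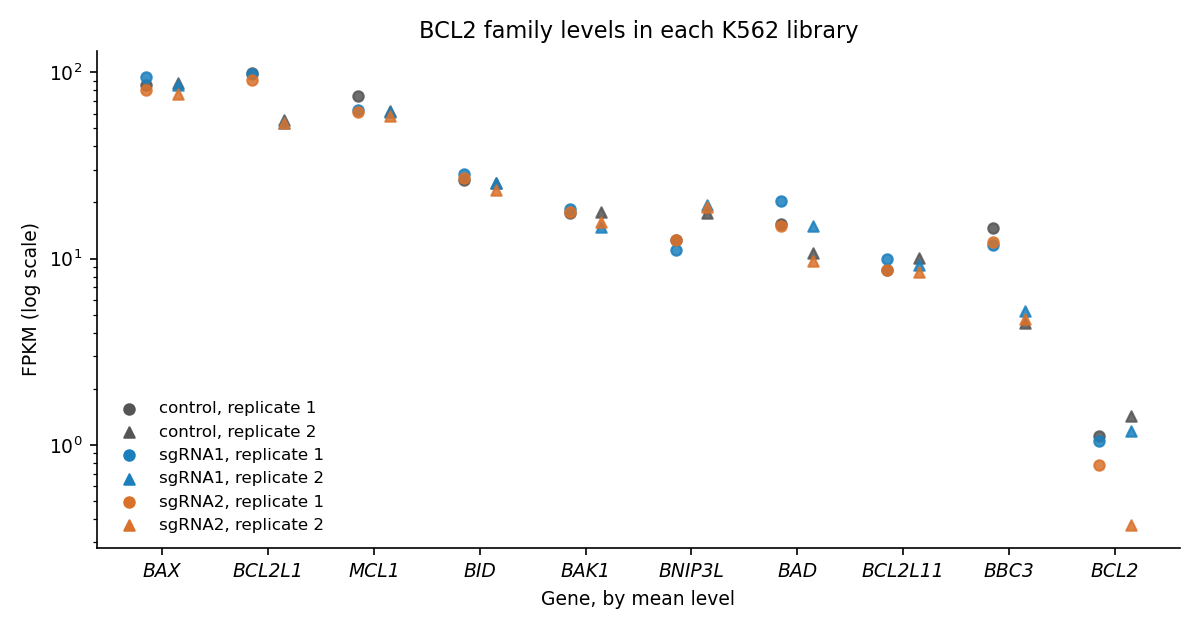
FPKM (log axis) of each member in each of the 6 libraries, ordered by mean level, with circles for replicate 1, triangles for replicate 2 and colours for the guide. BCL2L1 and BBC3 separate into a high replicate 1 set and a low replicate 2 set and BNIP3L into the opposite, while the 3 colours mix within a replicate number and BCL2 sits near 1 FPKM.

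Knockout of ZNF410 left no member past the test. Of the 10 members, 0 had a Benjamini-Hochberg adjusted p under 0.05 in edgeR's quasi-likelihood test of the 4 knockout against the 2 control libraries, where 0% of all 12282 genes did, and 0 of 10 had an unadjusted p under 0.05 (284 of all genes). Contrasts of sgRNA1 with control, sgRNA2 with control and sgRNA2 with sgRNA1 likewise called 0 of 10 members, against 0% of all genes in each. DESeq2's Wald test and limma on log2(FPKM + 1) called 0 members in these 4 contrasts as well. In the knockout contrast they called 0.155% and 0.00846% of all genes, so 0 of 10 members is near that background. With the replicate number as a block, which lowered the spread, 1.84% of all genes were called between knockout and control, 0.887% with sgRNA1, 1.38% with sgRNA2 and 0.0896% between the guides, and the members called stayed at 0 of 10 in each. In that blocked knockout contrast 1 of 10 members, MCL1, had an unadjusted p under 0.05, as did 1590 of all genes. Whether the knockout difference itself depended on the replicate number was tested as an interaction, which called 0 of 10 members and 0.244% of all genes. Its member values lay between -0.34 for BAK1 and 0.64 for BCL2 on the log2 scale.

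Members also differed little in size. In the blocked fit the knockout log2 fold changes ran from -0.16 (MCL1) to 0.13 (BCL2L11), with a median of -0.04 over the 10 members and 0.00 over all genes. Median absolute changes were 0.0668 for the members and 0.098 for all genes. No member had all 4 knockout libraries above or below both controls in log2 CPM, which 9.44% of all genes had.

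Replicate numbers separated most members. Between replicate 2 and replicate 1, with group as a covariate, 6 of the 10 members passed the test, where 45% of all genes did. BNIP3L and BCL2L11 were higher in replicate 2 (2 of 10, against 21.6% of all genes) and BBC3, BCL2L1, BAD and BID were lower (4 of 10, against 23.5%). The 3 replicate 1 and the 3 replicate 2 libraries did not overlap in log2 CPM for 7 of 10 members, the 6 called ones and BCL2, where 52.1% of all genes did not overlap. These shares are close to the background or rest on few genes, and nothing particular to the members follows from them. The members' median change was -0.18, against 0.00 for all genes, and their median absolute change 0.400, against 0.255.

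**Figure D2:**
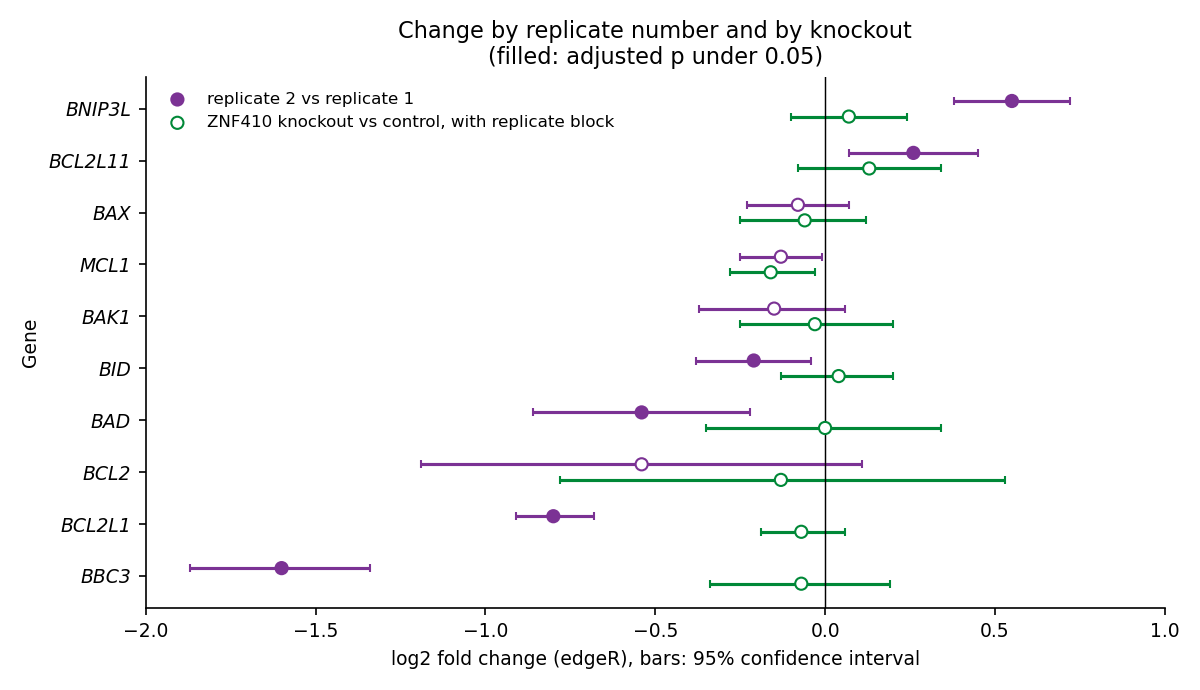
Log2 fold change of each member with its 95% confidence interval, for replicate 2 against replicate 1 and for knockout against control with the replicate block; filled points had an adjusted p under 0.05. BBC3 and BCL2L1 stand at -1.60 and -0.80 by replicate number, BNIP3L at 0.55, and every knockout point is open and lies between -0.16 and 0.13.

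Among the survival genes, BCL2L1 stood at 246 CPM (control), 240.6 (sgRNA1) and 219.6 (sgRNA2) in replicate 1 and at 137.5, 135.0 and 133.0 in replicate 2. Every replicate 1 library was thus above every replicate 2 library, whatever the guide. The fall was 1.74-fold (log2 fold change -0.80, SE 0.0534, adjusted p = 5.15e-08), and 12.5% of all genes had a larger absolute change between the numbers. Between knockout and control the blocked difference was -0.07 with a 95% interval of -0.19 to 0.06 (adjusted p = 0.69), and the 4 knockout libraries were each below the control of the same number, by 0.03 to 0.16. ABALON counts, opposite this gene, were 1097 to 1134 in replicate 1 and 628 to 719 in replicate 2, so the overlapping pair moved together and their shares cannot be told apart.

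MCL1, a survival gene whose protein is short-lived, stood at 311.5 CPM (control), 265.8 (sgRNA1) and 255.7 (sgRNA2) in replicate 1 and at 259.7, 254.7 and 245.1 in replicate 2. Control replicate 1 was the highest library and the other 5 lay within 245.1 to 265.8. Its difference between knockout and control was -0.16 with the block (SE 0.0576, 95% interval -0.28 to -0.03), and edgeR's adjusted p over all genes was 0.235. Each of the 4 knockout libraries was below the control of the same number, by 0.23 and 0.28 in replicate 1 and by 0.03 and 0.08 in replicate 2. Without control replicate 1 the blocked difference was -0.06 (adjusted p = 0.856), and without control replicate 2 it was -0.26 (adjusted p = 0.0825). For sgRNA2 alone, leaving out control replicate 2 gave a called difference of -0.29, against -0.19 (edgeR adjusted p = 0.249) with both controls. That fit kept 1 control library, and no share of all genes called stands beside it. The size therefore depended on which control library was kept. By replicate number MCL1 changed by -0.13 (SE 0.0545, adjusted p = 0.0676) and was not called.

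BCL2, the founding survival gene, had replicate 1 values of 34 counts in the control, 27 for sgRNA1 and 27 for sgRNA2, and replicate 2 values of 19, 20 and 24 in that order. Its replicate 2 counts were lower in all 3 groups, with a log2 fold change of -0.54 that did not pass the test (SE 0.304, 95% interval -1.19 to 0.11, adjusted p = 0.163). On the FPKM scale replicate 2 was higher in the control (1.42 against 1.11) and with sgRNA1 (1.18 against 1.05) and lower with sgRNA2 (0.37 against 0.78), and limma on log2(FPKM + 1) gave -0.03 (adjusted p = 0.876). Its blocked knockout value was -0.13 from the counts and -0.58 from the estimated counts, neither called. Its blocked 95% interval for knockout ran from -0.78 to 0.53, so the counts leave both a fall and a rise within it.

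The effector genes were called in no contrast. BAX stood at 67.81 CPM (control), 74.28 (sgRNA1) and 59.69 (sgRNA2) in replicate 1 and at 66.69, 64.48 and 59.34 in replicate 2. Both sgRNA2 libraries were below the other 4, a placing for which no share over all genes is given. In the blocked fit sgRNA2 differed from sgRNA1 by -0.22 (SE 0.0853, 95% interval -0.40 to -0.04), with an adjusted p of 0.999, and by -0.12 without sgRNA1 replicate 1 or -0.31 without sgRNA1 replicate 2. Knockout as a whole differed from control by -0.06 (95% interval -0.25 to 0.12). BAK1 had replicate 1 values of 30.68 CPM in the control, 32.80 for sgRNA1 and 35.03 for sgRNA2, and replicate 2 values of 32.18, 27.37 and 29.02 in that order. The BAK1 groups overlapped, with a knockout difference of -0.03 (95% interval -0.25 to 0.20). Neither effector was called by replicate number (BAX -0.08, adjusted p = 0.368, and BAK1 -0.15, adjusted p = 0.232).

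Of the BH3-only genes, BBC3, which encodes the p53-inducible activator PUMA, had the largest difference of all members. Its replicate 1 values were 32.41 CPM in the control, 28.94 for sgRNA1 and 28.0 for sgRNA2, and its replicate 2 values 9.285, 10.49 and 9.564 in that order. Replicate 1 libraries were thus all at 28.0 or above and replicate 2 libraries all at 10.49 or below. This was a 3.04-fold fall (log2 fold change -1.60, SE 0.123, 95% interval -1.87 to -1.34, adjusted p = 1.9e-07), and 2.9% of all genes had a larger absolute change. Its knockout difference with the block was -0.07 (95% interval -0.34 to 0.19). Without the block that interval was -1.63 to 1.41, since each group holds 1 high and 1 low library.

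BAD, whose protein binds BCL2L1 when growth signals are withdrawn, stood at 112 counts (control), 133 (sgRNA1) and 120 (sgRNA2) in replicate 1 and at 93, 96 and 74 in replicate 2. Scaled to library size, all replicate 1 values (12.92 to 14.64 CPM) were above all replicate 2 values (8.042 to 10.07 CPM). The 1.45-fold fall passed the test (-0.54, SE 0.148, adjusted p = 0.00858), but not with DESeq2 (adjusted p = 0.107) or without sgRNA1 replicate 1 (adjusted p = 0.0631). GPR137, which overlaps BAD on the other strand, had 152 to 178 counts in replicate 1 and 173 to 210 in replicate 2. The knockout difference of BAD was 0.00 with an interval of -0.35 to 0.34.

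BID, the BH3-only gene whose product is cut by caspase-8 downstream of death receptors, had replicate 1 values of 50.05 CPM in the control, 51.06 for sgRNA1 and 55.25 for sgRNA2, and replicate 2 values of 45.27, 45.92 and 43.80 in that order. The replicate numbers did not overlap, and the fall was small, 1.16-fold (-0.21, SE 0.0778, adjusted p = 0.0387). That call was lost with DESeq2 (adjusted p = 0.246), with limma on FPKM (0.0767) and without any 1 of the 4 knockout libraries (0.0917 to 0.295). Knockout and control differed by 0.04, with an interval of -0.13 to 0.20.

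BCL2L11, the gene of BIM, a target of forkhead factors in blood cells deprived of growth factors, went the other way. It stood at 32.52 CPM (control), 42.26 (sgRNA1) and 37.63 (sgRNA2) in replicate 1 and at 45.16, 46.97 and 42.28 in replicate 2. Replicate 2 values were above replicate 1 values by a narrow gap, the highest of replicate 1 being 42.26 and the lowest of replicate 2 42.28. The rise of 1.20-fold was called (0.26, SE 0.0900, adjusted p = 0.0285), but not with DESeq2 (adjusted p = 0.163), without control replicate 1 (0.164) or without control replicate 2 (0.195). On the FPKM scale the difference was 0.03 (limma, adjusted p = 0.809). The transcript length by which FPKM is divided was 3969 to 4171 bases in replicate 1 and 4170 to 4916 in replicate 2. FPKM was higher in replicate 2 in the control (10.11 against 8.69) and lower with sgRNA1 (9.27 against 9.90) and sgRNA2 (8.48 against 8.72). MIR4435-2HG, opposite this gene, had 297 to 306 counts in replicate 1 and 232 to 264 in replicate 2. The knockout difference of BCL2L11 was 0.13 (interval -0.08 to 0.34, adjusted p = 0.639).

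BNIP3L had replicate 1 values of 43.36 CPM in the control, 41.71 for sgRNA1 and 41.09 for sgRNA2, and replicate 2 values of 56.66, 65.53 and 62.82 in that order. Replicate 1 libraries lay within 41.09 to 43.36 and all replicate 2 libraries were higher. The rise was 1.47-fold (0.55, SE 0.0785, adjusted p = 6.24e-05), and the call held in each of its 16 other settings. Its blocked knockout difference was 0.07, with an interval of -0.10 to 0.24.

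Comparing the contrasts gene by gene, the absolute change by replicate number was larger than that by knockout in 9 of 10 members, MCL1 being the exception (0.13 against 0.16), and in 74.8% of all genes. The paired differences put 2 of 10 members, BCL2L1 and MCL1, with all 4 knockout libraries on one side of the same-number control, as were 31.2% of all genes.

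**Figure D3:**
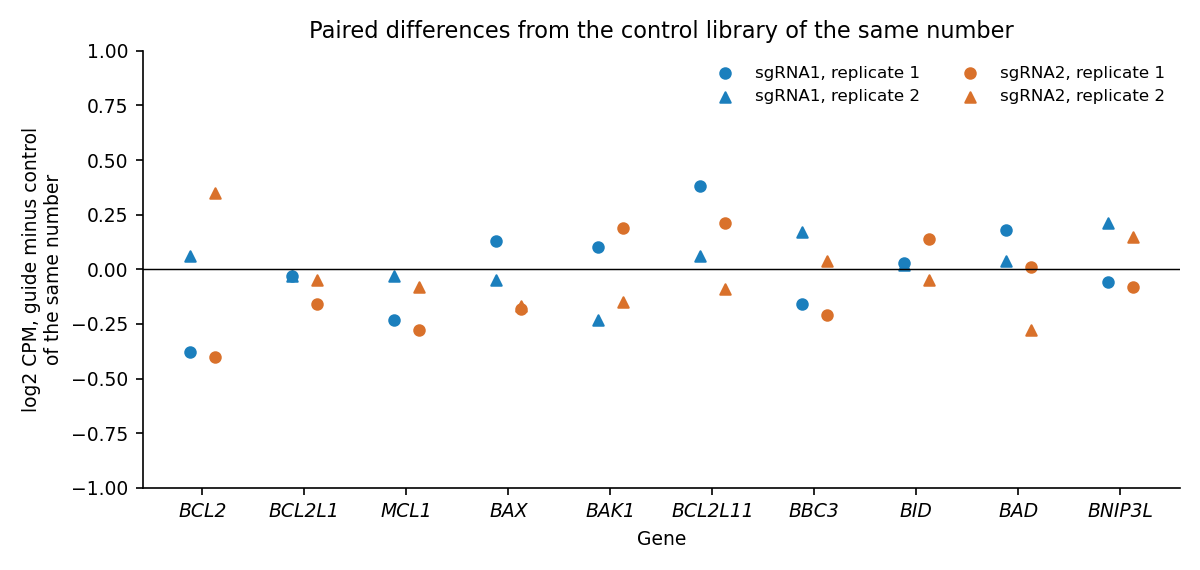
Log2 CPM of each knockout library minus the control library of the same replicate number, for the 10 members, with colour for the guide and symbol for the number. All 4 points of BCL2L1 and MCL1 lie below 0, those of the other 8 members fall on both sides, and no point is beyond 0.40 from 0.

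Set against each other within a library, some of the members kept different proportions in the 2 replicate numbers and others did not. The FPKM ratio of BCL2L1 to MCL1 was 1.33 to 1.55 over the replicate 1 libraries and 0.874 to 0.918 over the replicate 2 libraries, so BCL2L1 led in replicate 1 and MCL1 in replicate 2 in every group. BCL2L1 to BCL2L11 was 9.83 to 11.4 in replicate 1 and 5.50 to 6.30 in replicate 2. BBC3 fell more than BCL2L1 did, and the ratio of BCL2L1 to BBC3 went from 6.80 to 8.25 in replicate 1 to 10.3 to 12.3 in replicate 2. Other ratios overlapped between the numbers. MCL1 to BCL2L11 was 6.36 to 8.53 in replicate 1 and 6.16 to 6.86 in replicate 2. BAX to BAK1 was 4.51 to 5.13 and 4.86 to 5.77, and BCL2L1 to BCL2 was 88.9 to 117 and 39.2 to 144. The summed FPKM of the 3 survival genes was 153 to 174 in replicate 1 and 112 to 119 in replicate 2, that of the 4 BH3-only genes 62.9 to 70.4 and 46.1 to 54.9, and that of BAX and BAK1 97.6 to 113 and 92.2 to 105. BBC3 made up 16.7% to 22.4% of the BH3-only sum in replicate 1 and 8.89% to 10.3% in replicate 2. These ratios restate member levels and were given no test.

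**Figure D4:**
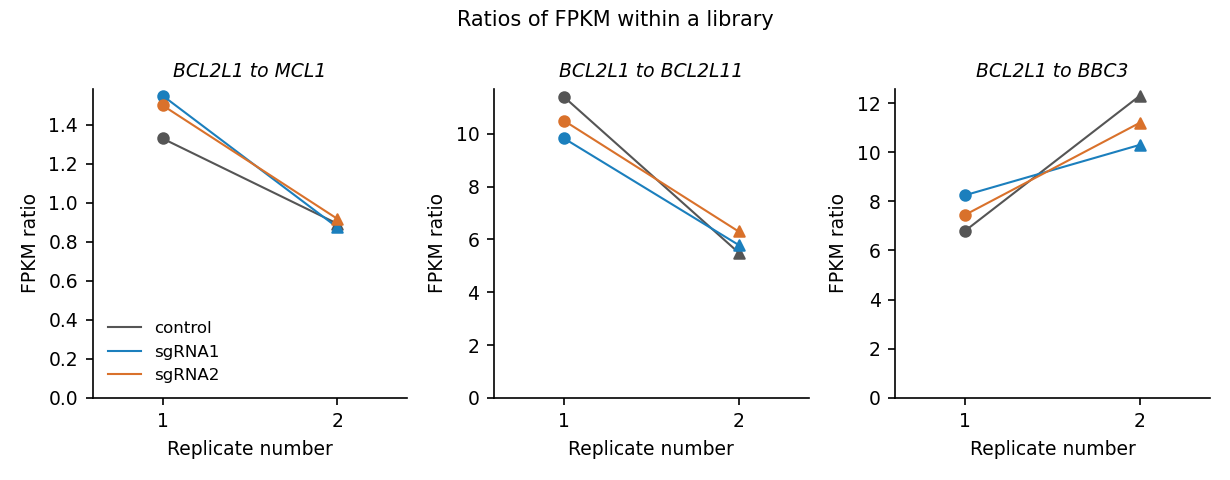
FPKM ratios of BCL2L1 to MCL1, to BCL2L11 and to BBC3 in each library by replicate number, with 1 line per group. The first 2 ratios are lower and the third higher in replicate 2 for all 3 groups.

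Genes around the members were counted in lists chosen by role. The 9 lists of survival and death genes other than the erythroid one held 90 tested genes, of which 55 (61.1%) were called by replicate number, 20 higher and 35 lower in replicate 2, where 45% of all genes were called, 21.6% higher and 23.5% lower. With the replicate block 2 of the 90 (2.22%, against 1.84% of all genes) were called between knockout and control, both death receptors and both lower, and without it 0 (with an unadjusted p under 0.05, 11 of the 90 with the block and 1 without it).

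In the list of other BCL2 family genes, 5 of 7 tested were called by replicate number, 1 higher and 4 lower (45% of all genes). The 4 lower ones, and the 55 called over the 9 lists, include BMF, which passed the count filter only through replicate 1. PMAIP1, which encodes the BH3-only protein NOXA, an MCL1 binder, had 29.06 to 35.66 CPM in replicate 1 and 15.41 to 18.48 in replicate 2 (log2 fold change -0.94, SE 0.117). BMF, another BH3-only gene, was at 7 to 25 counts against 4 or 5 (-1.78, SE 0.485), and its call was lost with DESeq2 and without any 1 of the 4 knockout libraries. It passed the count filter only through sgRNA1 and sgRNA2 of replicate 1 (17 and 25 counts). That is the number where it was high, so its call is not independent of the filter. BNIP3, the paralogue of BNIP3L in mitophagy, was higher at 50.44 to 62.18 CPM against 28.95 to 49.74 (0.54, SE 0.0972). Knockout called 0 of these 7 with or without the block. BNIP3 stood close to the threshold there: each knockout library was above the control of the same number, its blocked difference was 0.43 (adjusted p = 0.0515), and it was called in 4 of 12 blocked settings, at 0.64 without control replicate 2 (adjusted p = 0.0133) against 0.26 without control replicate 1 (0.454).

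Upstream regulators of the family, such as kinases and transcription factors, had 13 of 15 genes called by replicate number, 1 higher and 12 lower, with a median log2 fold change of -0.40, against 45% called, 23.5% lower and a median of 0.00 over all genes. JUN (-1.18), the survival kinase gene PIM1 (-0.81) and the stress-response factor ATF4 (-0.76) had the largest changes of those called. Knockout called 0 of the 15. K562 is known to lack functional p53, and in the list of p53 pathway and target genes 5 of 11 were called by replicate number, 2 higher and 3 lower, led by the lower SESN2 (-2.17), FDXR (-0.90) and GADD45A (-0.88), and 0 of 11 by knockout; 5 of 11 is about the 45% of all genes.

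Of the 9 survival and death lists, the death receptor list held the 2 genes called by knockout in the blocked fit. TNFRSF10B, the TRAIL receptor gene DR5, stood at 65.04 CPM (control), 43.69 (sgRNA1) and 46.28 (sgRNA2) in replicate 1 and at 20.36, 15.31 and 16.30 in replicate 2, so it was lower with both guides within each number and lower in replicate 2 in every group. Its blocked knockout difference was -0.47 (SE 0.0927, adjusted p = 0.0169, but 1 without the block), and its replicate difference -1.57 (SE 0.0949, adjusted p = 1.86e-08). TNFRSF1A, the TNF receptor gene, had replicate 1 values of 54.78 CPM in the control, 45.23 for sgRNA1 and 40.87 for sgRNA2, and replicate 2 values of 32.82, 24.33 and 24.89 in that order. It fell by 0.38 on the log2 scale with knockout in the blocked fit (SE 0.0875, adjusted p = 0.0383, but 1 without the block) and by 0.78 in replicate 2. The TNFRSF10B call was lost without control replicate 1 (-0.37, adjusted p = 0.366), sgRNA1 replicate 1 (0.082) or sgRNA2 replicate 1 (0.0557) and with DESeq2 (0.0544) or limma (0.0792), and the TNFRSF1A call when any 1 of the 6 libraries was left out (0.0577 to 0.176) and with DESeq2 (0.161) or limma (0.0666). With either guide alone neither receptor passed the test (blocked adjusted p = 0.0544 to 0.219). By replicate number 5 of 7 tested genes of this list were called, 2 higher and 3 lower (45% of all genes), the third lower one being CFLAR (-0.50), which encodes the caspase-8 inhibitor FLIP.

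The counts that follow stand against the same 45% of all genes, and with lists this short most are near it. Downstream of the mitochondrion, 8 of 15 apoptosome and caspase genes were called by replicate number, 5 higher and 3 lower, with CASP9 (-0.64) and APAF1 (-0.48) lower and CASP6 (0.60) higher; the APAF1 call was lost with DESeq2, with unfiltered limma and without either sgRNA1 library. In the mitochondrial pore list 8 of 11 were called, 5 higher and 3 lower, with TSPO (-0.82), MFN2 (0.62) and VDAC3 (0.40) named for size. Mitophagy genes had 2 higher and 6 lower of 16, with GABARAPL1 (-0.77), ULK1 (-0.71) and CALCOCO2 (-0.60) lower, so BNIP3L and BNIP3 rose while these fell. Inhibitors of apoptosis had 1 of 4 called, BIRC6 (0.45), and regulators of MCL1 turnover 3 of 6, HUWE1 (0.32), MARCH5 (-0.31) and USP9X (0.14), of which MARCH5 was called in 12 of 16 other settings (not with DESeq2, unfiltered limma or without either sgRNA2 library) and USP9X in 8 (not with DESeq2, limma or without any 1 of the 4 knockout libraries). Knockout called 0 genes in each of these 5 lists, blocked or not.

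Erythroid maturation genes, listed because BCL2L1 and BNIP3L act in that setting, had 12 higher and 2 lower of 18 by replicate number (21.6% and 23.5% of all genes; median 0.60, led by HBE1 at 2.47, HBZ at 2.24 and ALAS2 at 1.76). With the block 6 of 18 were called between knockout and control, against 1.84% of all genes, all higher, among them HBE1 (0.92), HBZ (0.64), HBG1 (0.59) and GYPB (0.57), and 0 of 18 without it. HBE1 was called in all 12 blocked settings, HBG1 in 11 (not without control replicate 1), HBZ in 9 (not without control replicate 2, with DESeq2 or with limma) and GYPB in 5 (of the 6 libraries, leaving out sgRNA2 replicate 2 alone kept the call). The sizes depended on the control library: without control replicate 1 and without control replicate 2, HBZ differed by 0.93 and 0.26, HBG1 by 0.38 and 0.82, and HBE1 by 1.07 and 0.71. The interaction called 2 of the 18 (0.244% of all genes), both with a more positive knockout difference in replicate 2.

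**Figure D5:**
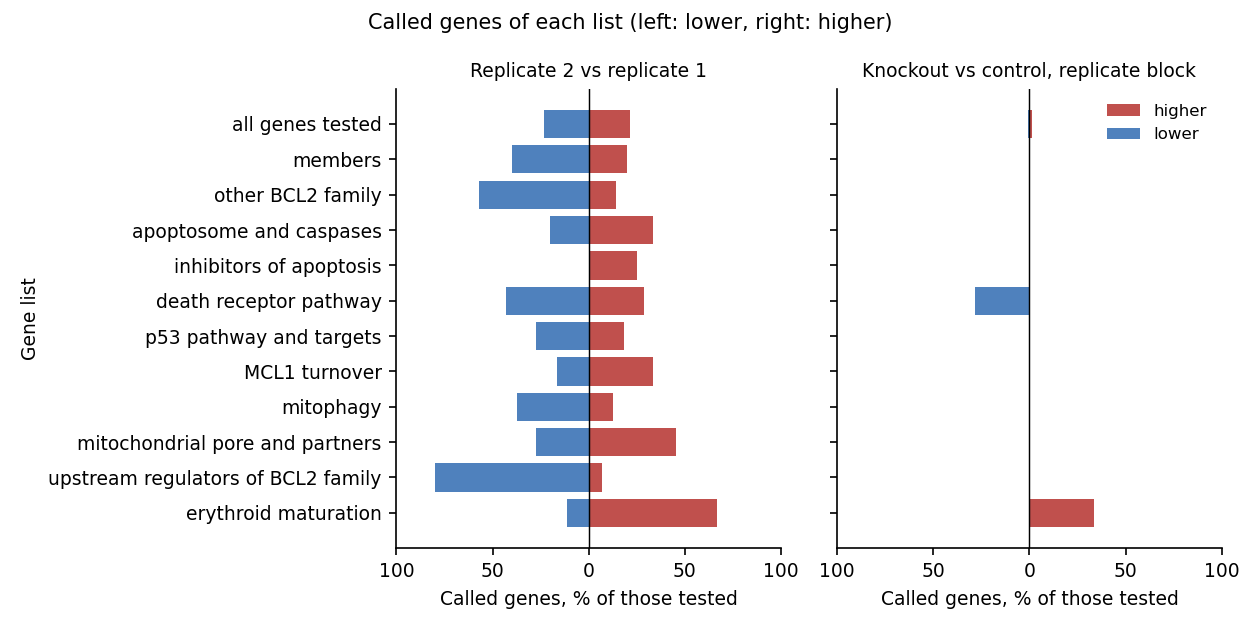
Share of tested genes in each list that was called lower (left of 0) or higher (right of 0), in percent, by replicate number (left panel) and by knockout with the replicate block (right panel). In the right panel only the death receptor list, at 2 of 7 lower, and the erythroid list, at 6 of 18 higher, show bars beyond the sliver for all genes.

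Across the 6 libraries, the gene whose log2 CPM followed a member most closely was sought among up to 9966 genes, those averaging 50 counts or more. MS4A4A followed BBC3 (Pearson r = 0.9999), LITAF followed BCL2L1 (r = 0.999) and EAF1 followed BNIP3L (r = 0.999). For these 3 members the match was not unusual, since 874, 855 and 425 genes had an r over 0.95 with them and all share the gap between the replicate numbers. BAX and BAK1, which differed little by number, had 7 and 13 such genes, led by ELL (r = 0.9946) and BRF1 (r = 0.9832). PSMD3 was nearest to MCL1, PCGF6 to BCL2, C12orf65 to BCL2L11, KAZN to BID and CENPV to BAD, with r of 0.9945 to 0.9986. With 6 libraries these values describe the libraries only.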

How the data were processed

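RNA-seq libraries of K562 cells, 2 per group, were grouped by the guide named in the sample titles. The authors deposited a whole-number count per gene symbol, which leaves out 5 rows of reads given to no gene (61.6% to 62.6% of each table). Other tables of the authors hold, per the file headers, the estimated counts (expected counts) of a gene together with its TPM, FPKM and transcript length. TPM values as deposited by the authors entered no test. The submitters' processing notes name hg38, Trim Galore, HISAT2 2.2.1, SAMtools 1.9, HTSeq 0.6.1, RSEM 1.3.2 and DESeq2 1.36.0, and which tool made which file is not given in the sources used here, nor is the strand setting. FPKM values, so named per the file headers, are scaled by the authors to transcript length and depth. Gene counts summed to 8788816 to 9537470 per library, 50.4% to 51.6% of the estimated counts, and the members' ratio of the 2 was 0.492 (BAK1) to 0.751 (BCL2), against a median of 0.553.

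Counts were tested with edgeR 4.0.16 (R 4.3.3): TMM scaling, filterByExpr by group, quasi-likelihood test, Benjamini-Hochberg adjustment over 12282 genes, calls at an adjusted p under 0.05. CPM used TMM-scaled library sizes, and log2 CPM a prior count of 2. The standard error of a log2 fold change was taken as its size over the root of the F statistic, and 95% intervals came from the same fit. The scripts were tested on simulated counts. Groups share replicate numbers, and the deviations of same-numbered libraries from their group mean correlated at r = 0.811, 0.757 and 0.824 over 9966 genes. The first principal component held 72.2% of the variance. The pairing comes from the data, not the labels, and values with the number as a block stand beside the main ones. Libraries of a group differed far beyond sampling noise (chi-square per degree of freedom 22.3 to 26.8), so none was a repeat deposit. Other settings were DESeq2 1.42.0 (size factors, Wald test), upper-quartile scaling, other count filters, estimated counts rounded to whole numbers, limma 3.58.1 on log2(FPKM + 1) or log2(FPKM + 0.1), the block, and leaving out each library.

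The members, the gene lists and the rules for named genes were chosen with earlier results of these data known. All members are named, with the called genes of each list for knockout (up to 5) and the 3 largest called by replicate number, and the 1 gene most like each member; 1 gene that the rule names is not reported here. The promoter stretches shown were picked after the members' values were seen; the windows searched leave out 1 chromosome. Settings for TNFRSF10B, TNFRSF1A and the other list genes were added after their values were seen.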

Additional observations from a re-analysis of the deposited data

How the results depend on the processing

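The count of members called was 0 in the 5 contrasts other than replicate number, so a range of settings says little about their stability. By replicate number it was 6, against 3 with DESeq2's Wald test, which called 28% of all genes in place of 45%, and 4 to 6 in the other settings, which called 26.8% to 52.6%. Between sgRNA2 and control, MCL1 was called only with the replicate block and without control replicate 2, a fit that kept 1 control library. The share of all genes called in that fit is not given, so the call cannot be set against a background. The replicate block changed no other call of a member. BBC3, BCL2L1 and BNIP3L were called by replicate number in all 16 other settings, BAD in 14, BCL2L11 in 9 and BID in 8.

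Knockout values of single members, none of them called, changed sign in 38 of 269 values under other settings, with a lowest adjusted p of 0.692 there. BAD went from 0.01 to -0.01 with the block and DESeq2 size factors, the Wald test or no filter beyond 1 count, BCL2L11 from 0.12 to -0.05 with limma and a pseudocount of 0.1 and to -0.04 in the other 3 limma fits, and BID from 0.04 to -0.01 with estimated counts, blocked or not. With a library left out and no block, the values spanned -0.18 to 0.21 for BAD, -0.09 to 0.04 for BAK1, -0.75 to 1.04 for BBC3, -0.56 to 0.39 for BCL2, -0.43 to 0.40 for BCL2L1, -0.10 to 0.38 for BCL2L11, -0.03 to 0.11 for BID and -0.11 to 0.28 for BNIP3L. With the block, leaving out control replicate 1 gave -0.12 for BAD, 0.10 for BBC3, 0.22 for BCL2, -0.02 for BCL2L11 and -0.02 for BID; control replicate 2, 0.14 for BAK1 and -0.07 for BNIP3L; sgRNA1 replicate 1, -0.06 for BAD; and sgRNA1 replicate 2, -0.06 for BAD and 0.02 for BAK1. Without a block, dropping a library leaves the replicate numbers unequal between groups. Among the 842 member values of the guide and interaction contrasts not given one by one, 113 changed sign, 71 of them with a library left out, and 0 were called. For the list genes the settings were chosen after seeing the data. The knockout difference of TNFRSF10B without a block was -1.1 without control replicate 2 and 0.57 without control replicate 1, and that of TNFRSF1A -0.7 and 0.03; with the block it was -0.53 to -0.37 and -0.45 to -0.35 over 12 settings, called in 7 and 4. The 9 lists held 38 to 60 called genes by replicate number and 0 to 4 by knockout. Mean counts were lowest for BCL2 (19 to 34 per library) and BAD (74 to 133), and BBC3 had 88 to 100 counts in replicate 2.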

Other observations

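The antisense or overlapping partners of the members did not all follow them. ABALON counts fell with BCL2L1 between the replicate numbers (control 1110 and 719, sgRNA1 1134 and 691, sgRNA2 1097 and 628). MIR4435-2HG counts were lower in replicate 2 while those of BCL2L11 were higher (control 297 and 232, sgRNA1 305 and 264, sgRNA2 306 and 240). GPR137 counts were higher in replicate 2 while those of BAD were lower (control 152 and 173, sgRNA1 178 and 210, sgRNA2 172 and 203). Whether reads were shared within these pairs was not tested.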
